A study of Mus musculus with 2 samples.

Results

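Of 62686 CTCF peaks in the hindbrain of newborn mice, 2179 had their summit just past the end of a protein-coding gene. CTCF is the zinc finger protein that stops the loop-extruding cohesin ring and so marks loop ends and domain borders. The peaks were picked by position alone. The summit had to lie on chromosomes 1 to 19, outside every gene of the GENCODE vM21 annotation and more than 1 kb from any start site. It also had to lie at most 5 kb downstream of the 3' end of a protein-coding gene, on a base that is not soft-masked as a repeat. A base is called eligible here when it meets these conditions whatever its distance from a gene end. Of the peaks, 61263 were on chromosomes 1 to 19.

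The tissue came from B6NCrl mice on postnatal day 0, and dissected hindbrains were pooled and ground before chromatin immunoprecipitation with a CTCF antibody and sequencing. There is 1 group of 2 libraries, numbered 1 and 2 as biological replicates and drawn from the same pooled material, so differences between them may be technical. No treatment, genotype or second tissue was compared. A mixed tissue gives the average over its cell types, and in such bulk material fewer cells with a site and weaker binding per cell cannot be told apart. Binding sites hold no expression values, so the tissue label could not be checked against marker genes here.

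RNA polymerase II runs on past the end of a gene before it is released, and the next gene can lie on either strand. Where it is on the same strand (tandem neighbours), the end of the first gene faces the start of the next. Where it is on the other strand (convergent neighbours), both genes end towards each other. The CTCF motif is not symmetric. Its strand sets which way the bound protein faces, and cohesin loops are mostly held between motifs that point towards each other. A motif on the strand of the gene that ends reads away from that gene, towards the neighbour, and a motif on the other strand reads back into the gene.

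The gene that ends was taken as the one with the nearest 3' end, and the neighbour as the next protein-coding gene beyond the summit. Of the peaks, 1318 lay between tandem and 860 between convergent neighbours, and 1, past Ptchd3 near the end of chromosome 11, had no neighbour. Within the convergent class, 209 peaks (24.3%) lay within 5 kb of both facing ends. Another coding gene's edge stood between the end and the summit in 12 cases (0.551%). Convergent peaks were slightly nearer to their end (median 1821 bp against 2216 bp) and lay in shorter gaps between genes (median 14.9 kb against 19.9 kb). In convergent gaps the distance is the shorter of those to 2 facing ends. Per eligible base, the first 2.5 kb held alike densities, with a tandem to convergent ratio of 1.01 (exact 95% interval 0.906 to 1.13).

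The sequences at the strongest peaks show the motif and the direction it takes. The 4 strongest peaks in each class whose best match has a strand are printed 5' to 3' on the strand of the motif, from the RefSeq copy of GRCm38.p6 (mm10). The convergent peak past Slc17a9, which is stronger than that past Zmynd8, was passed over because its best matches tie between strands. Capitals mark the 14-base match to the CTCF core consensus and lower case the 10 bases on each side.
Stmn1, tandem, chr4:134478170-134478203, minus strand: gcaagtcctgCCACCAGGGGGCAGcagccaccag
Kcnk18, tandem, chr19:59239622-59239655, plus strand: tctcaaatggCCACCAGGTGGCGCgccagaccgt
Asb10, tandem, chr5:24530190-24530223, minus strand: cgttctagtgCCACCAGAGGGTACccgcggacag
Sppl2c, tandem, chr11:104196017-104196050, minus strand: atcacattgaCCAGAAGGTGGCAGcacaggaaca
1600014C10Rik, convergent, chr7:38201091-38201124, minus strand: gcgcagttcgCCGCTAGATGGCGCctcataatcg
Rfng, convergent, chr11:120776266-120776299, minus strand: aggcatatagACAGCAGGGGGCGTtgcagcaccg
Shmt2, convergent, chr10:127513008-127513041, plus strand: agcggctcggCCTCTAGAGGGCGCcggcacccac
Zmynd8, convergent, chr2:165782503-165782536, plus strand: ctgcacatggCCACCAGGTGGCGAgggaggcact
The matches at Stmn1 and Kcnk18 have 0 mismatches to the consensus, and that at Rfng has 2. The other matches have 1 each. Stmn1, Kcnk18, Sppl2c and 1600014C10Rik are on the plus strand and the other genes on the minus strand. The motifs past Kcnk18, Asb10 and Rfng thus read away from their gene, and the other 5 read back into it.

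CTCF sites were frequent past gene ends for the length of sequence available. The 39.7 Mb of eligible bases within 5 kb past an end held 54.9 summits per Mb (exact Poisson interval 52.6 to 57.3; all intervals are 95% and cover counting error only). Eligible bases 1 to 5 kb upstream of a coding gene's start, and past no end, held 1337 summits in 28.1 Mb, or 47.6 per Mb (45.1 to 50.3). The remaining eligible bases, called far intergenic here, held 12973 in 662.9 Mb, or 19.6 per Mb (19.2 to 19.9). The density past ends was thus 2.81 times that of far intergenic sequence (exact interval 2.68 to 2.94), with an exact p too small for the software to represent.

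Against sequence upstream of starts the ratio was 1.15 (exact interval 1.08 to 1.23, exact binomial test, adjusted p = 1.11e-04). This smaller difference did not hold with 2.5 kb in place of 5 kb, where the ratio was 1.10 (adjusted exact p = 0.0991). With only the strongest peak kept per gene end it was 1.01 (adjusted exact p = 0.840), although peaks upstream of starts were not thinned in that way. Bases near both an end and a start were counted as past ends, so parts of short tandem gaps fall there. The part of gap length in the ratio was not tested. Adjusted p values here are Benjamini-Hochberg values over 13 comparisons, and each test counts peaks, bases or motif matches as independent, not libraries.

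Between tandem and convergent neighbours the density did not differ beyond counting error. It was 55.6 per Mb (52.6 to 58.7) over 23.7 Mb of tandem sequence and 54.0 per Mb (50.4 to 57.7) over 15.9 Mb of convergent sequence. The ratio was 1.03 (exact interval 0.944 to 1.12, adjusted exact p = 0.570).

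The density changed little with distance from the end. By 1 kb steps from the end to 5 kb it was 54.9, 54.9, 59.2, 53.2 and 51.6 summits per Mb. The first 2.5 kb held 1.06 times the density of the next 2.5 kb (exact interval 0.972 to 1.16, adjusted exact p = 0.279). When soft-masked bases were included, the ratio was 1.17 and passed the test (adjusted exact p = 6.11e-05). Beyond the limit the density went on at 54.6 per Mb from 5 to 6 kb and was 43.3 per Mb (37.6 to 49.6) from 9 to 10 kb. Peaks on either side of the 5 kb limit were alike in number, with 165 from 4.5 to 5 kb (median signal 215.9) and 168 from 5 to 5.5 kb (201.2).

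**Figure D1:**
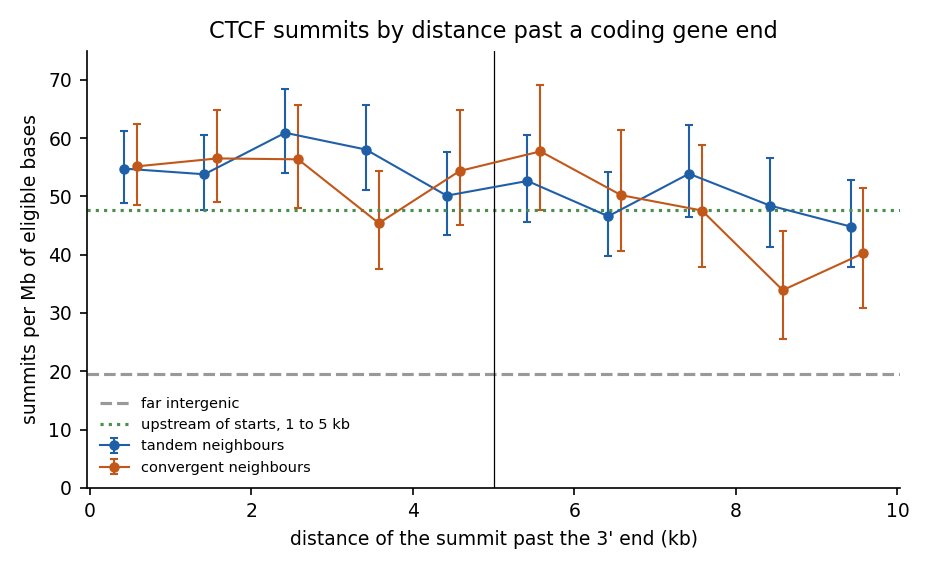
Summits per Mb of eligible bases (vertical axis) by distance past the nearest 3' end in 1 kb steps (horizontal axis), for tandem (blue) and convergent (orange) neighbours. Bars are exact Poisson 95% intervals and the vertical line marks the 5 kb limit. Both curves stay above the dashed line of far intergenic sequence at 19.6 at every step, and the dotted line is sequence upstream of starts at 47.6.

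Sequence past ends held more sites per base in short gaps between genes than in long ones. Only eligible bases within 5 kb past an end were counted, grouped by the length of the gap. In tandem gaps under 10 kb these bases held 64.2 summits per Mb (57.9 to 71.0), and in tandem gaps over 200 kb 33.1 (26.2 to 41.3). For convergent gaps the same values were 70.8 (63.2 to 79.0) and 27.9 (20.7 to 36.8). From 10 to 50 kb they were 57.3 in tandem and 54.5 in convergent gaps. The intervals of the shortest and longest gaps are apart in both classes, while tandem and convergent gaps of like length overlap in each of the 4 length classes.

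The sequence past gene ends was richer in the motif than far intergenic sequence. Matches with at most 1 mismatch to the consensus numbered 43.6 per Mb of eligible bases past ends, 35.3 per Mb upstream of starts and 19.5 per Mb in far intergenic sequence. The G+C content of these bases was 44.8%, 44.2% and 41.4%, and its part in the difference was not tested. Matches were also bound more often past ends. Of 1730 matches there, 1013 (58.6%, Wilson interval 56.2 to 60.9) had a summit within 50 bp, against 5359 of 12915 (41.5%, 40.6 to 42.3) in far intergenic sequence. The difference was 17.1 percentage points (Newcombe interval 14.6 to 19.5, Fisher's exact test, adjusted p = 6.43e-40). Upstream of starts 54.3% were bound (51.2 to 57.4). These shares rest on the limit of 1 mismatch. With at most 2 mismatches, 1642 of 10774 matches (15.2%) past ends were bound. It was then 14.2% upstream of starts and 8.20% in far intergenic sequence. The difference of ends from far intergenic sequence was 7.04 points (Newcombe interval 6.36 to 7.75, Fisher's exact test, adjusted p = 4.91e-114).

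Tandem and convergent neighbours had the same bound share within its error. It was 601 of 1025 matches (58.63%) in tandem and 412 of 703 (58.61%) in convergent sequence. The difference was 0.028 percentage points (Newcombe interval -4.67 to 4.76, Fisher's exact test, adjusted p = 1). Its sign changed under 7 alternatives.

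**Figure D2:**
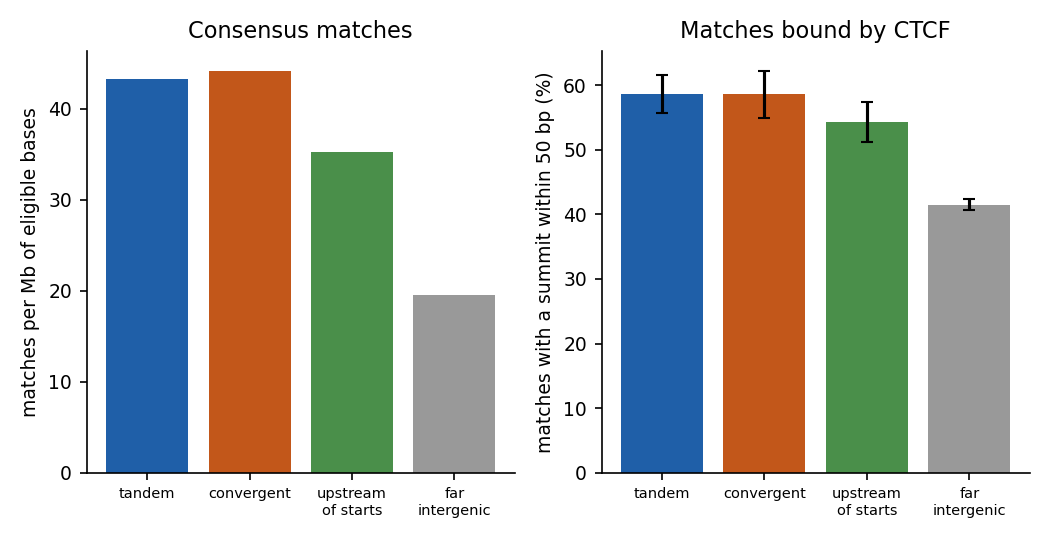
Left, matches to the CTCF consensus with at most 1 mismatch per Mb of eligible bases. Right, the share of these matches with a summit within 50 bp in percent, with Wilson 95% intervals, for tandem, convergent, upstream and far intergenic sequence. The bars past ends stand at 43.2 (tandem) and 44.1 (convergent) matches per Mb and at 58.6% bound in both, against 19.5 and 41.5% in far intergenic sequence.

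Most peaks past gene ends carried the motif at the summit. Of the 2179 peaks, 1623 (74.5%, Wilson interval 72.6 to 76.3) had a match of 2 or fewer mismatches no more than 50 bp from their summit. Among all peaks on chromosomes 1 to 19 the share was 65.3%, and among far intergenic peaks 70.4% (69.6 to 71.2). Windows of equal length 1 kb to the left and right of the summits past ends held a match in 3.44% and 2.85%. The difference from far intergenic peaks was 4.07 percentage points (Newcombe interval 2.04 to 6.02, Fisher's exact test, adjusted p = 2.05e-04). Among the 31343 strongest peaks this difference was 0.904 points (Fisher's exact test, adjusted p = 0.527), and with 2.5 kb in place of 5 kb it was 2.95 points (adjusted exact p = 0.0543).

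Tandem and convergent peaks had the motif in 74.96% and 73.72%. This difference of 1.24 points was within its error (Newcombe interval -2.48 to 5.03, Fisher's exact test, adjusted p = 0.570). Perfect matches were found in 201 tandem peaks (15.3%) and 129 convergent peaks (15.0%), against 12.1% of far intergenic peaks.

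Peaks past gene ends were strong. The signal value, on the peak caller's own scale, ran from 7.22 to 631.1 with a median of 169.2 (quartiles 57.4 and 307.0). The median was 104.5 in far intergenic peaks and 143.2 upstream of starts. A signal above the median of all peaks on chromosomes 1 to 19, which was 73.8, was found in 1505 of 2179 (69.1%, Wilson interval 67.1 to 71.0). By construction this share is 50% over all peaks, and it was 58.5% in far intergenic peaks. Upstream of starts it was 65.3% (62.7 to 67.8), nearer to that past ends, and this difference was not tested. The difference from far intergenic peaks was 10.5 points (Newcombe interval 8.39 to 12.6, Fisher's exact test, adjusted p = 2.25e-20).

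The shares of such strong peaks were 69.8% in tandem and 67.9% in convergent gaps. This difference of 1.90 points did not pass the test (Newcombe interval -2.06 to 5.90, Fisher's exact test, adjusted p = 0.478). Signal followed the quality of the motif in each class. Tandem peaks with 0, 1, 2 and 3 mismatches had median signals of 297.5, 223.6, 129.9 and 73.8. Convergent peaks had 313.0, 218.0, 120.2 and 72.5. With 4 or more mismatches the medians were 41.0 and 45.1.

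**Figure D3:**
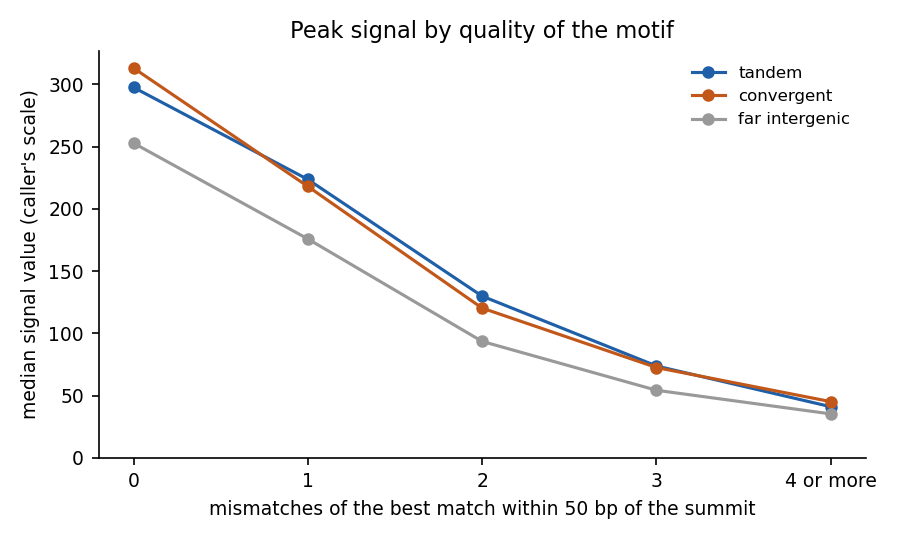
Median signal value on the caller's scale (vertical axis) by the mismatches of the best match within 50 bp of the summit (horizontal axis), for tandem, convergent and far intergenic peaks. Tandem and convergent peaks run close together, from 297.5 and 313.0 at 0 mismatches to 41.0 and 45.1 at 4 or more, and far intergenic peaks start lower, at 252.7.

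The classes did differ in the share of motifs on the strand of the gene that ends, but this share is not a like measure in both. Tandem neighbours share a strand, so a motif has the same label whichever gene is used. Which of these genes the tandem share follows was not tested. In convergent gaps a motif that reads away from the nearer gene reads into the other, so its label rests on which end is nearer. Past the ends of tandem genes, 606 of 978 motifs (62.0%, Wilson interval 58.9 to 65.0) were on the strand of the gene that ends, reading away from it. The exact binomial test against 50% gave an adjusted p of 2.31e-13. Past convergent ends the share was 347 of 621 (55.9%, 51.9 to 59.7; exact binomial test, adjusted p = 0.00711). Between the classes the difference was 6.09 points (Newcombe interval 1.15 to 11.02, Fisher's exact test, adjusted p = 0.0264).

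The tandem excess passed the test under every alternative tried, with shares from 59.7% to 65.5%. The convergent excess did not. It was 52.3% with 2.5 kb in place of 5 kb (adjusted exact p = 0.505), 54.9% among the 31343 strongest peaks (0.0611) and 54.1% with neighbours within 50 kb only (0.120). The difference between the classes was lost when the neighbour could be any annotated gene, coding or not. The convergent share then rose to 429 of 723 (59.3%, Wilson interval 55.7 to 62.9; exact binomial test, adjusted p = 1.51e-06) and the tandem share was 59.7%. The difference was 0.413 points (Fisher's exact test, adjusted p = 0.951). The contrast between tandem and convergent ends therefore rests on counting only protein-coding neighbours.

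Further comparisons of the motif strand were added after the data were seen, and their p values are adjusted over 6 tests. The first concerned unbound sequence. Of tandem matches with at most 1 mismatch, 64.1% of 601 bound ones were on the strand of the gene that ends, against 48.8% of 424 unbound ones (Wilson interval 44.1 to 53.6). That is a difference of 15.2 points (Newcombe interval 9.09 to 21.3, Fisher's exact test, adjusted p = 4.22e-06). In convergent sequence bound and unbound matches gave 56.1% and 50.9%, a difference of 5.21 points that did not pass (Newcombe interval -2.26 to 12.6, Fisher's exact test, adjusted p = 0.230). Upstream of starts, 463 of 924 motifs (50.1%, 46.9 to 53.3) were on the strand of the gene that starts. This was 9.45 points below the 59.6% past all ends (Newcombe interval 5.43 to 13.5, Fisher's exact test, adjusted p = 9.18e-06).

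The tandem excess was seen in strong peaks. Among those with a signal above the median of all peaks, 511 of 774 motifs (66.0%, Wilson interval 62.6 to 69.3) were on the strand of the gene that ends. Among the weaker tandem peaks it was 95 of 204 (46.6%, 39.9 to 53.4). The difference was 19.5 points (Newcombe interval 11.8 to 26.9, Fisher's exact test, adjusted p = 3.84e-06). In convergent gaps strong and weaker peaks had 54.9% and 59.2%, a difference of -4.25 points that did not pass (Newcombe interval -13.2 to 5.08, Fisher's exact test, adjusted p = 0.388). Whether these 2 differences differ from each other was not tested.

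Distance changed the tandem share little. It was 65.4% within 1 kb of the end, 60.8% from 1 to 2.5 kb, 61.0% from 2.5 to 5 kb and 58.3% from 5 to 10 kb. Convergent shares were 54.6%, 50.2%, 61.8% and 51.1% in the same steps. Where both facing ends lay within 5 kb, 53.7% of 162 motifs (46.0 to 61.2) were on the strand of the nearer gene. At these peaks either gene could be taken as the gene that ends, with the opposite label. The convergent share without such peaks was not computed.

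**Figure D4:**
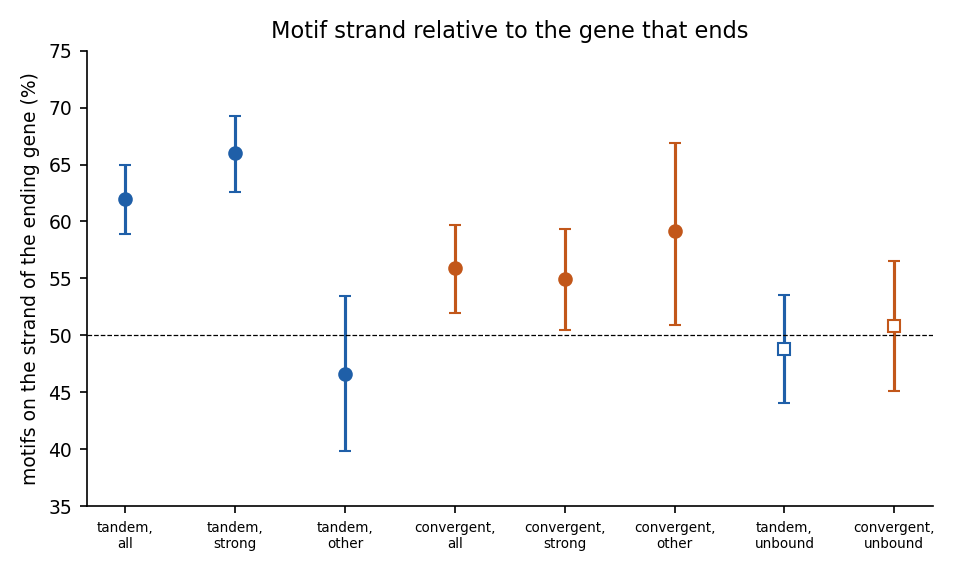
Share of motifs on the strand of the gene that ends, in percent (vertical axis), with Wilson 95% intervals and a dashed line at 50%, by class of neighbour. Filled circles are peaks with a motif, all, strong and other, and open squares are unbound matches with at most 1 mismatch. Strong tandem peaks stand highest at 66.0%, and unbound matches stand at 48.8% (tandem) and 50.9% (convergent).

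Genes with a site past their end often had a CTCF site at their start as well. Of 1911 such genes, 894 (46.8%, Wilson interval 44.6 to 49.0) had a summit within 1 kb of one of their start sites. Of the 14778 other genes with eligible bases past their end it was 38.7% (37.9 to 39.5), a difference that was not tested. Tandem and convergent genes had a start site peak in 45.8% and 48.3%. With such a peak, 63.3% of the motifs past the end were on the gene's strand, and without one 56.5%. This difference of 6.80 points passed the test (Newcombe interval 1.98 to 11.6, Fisher's exact test, adjusted p = 0.00871). It was 4.68 points and did not pass without replicate 2, when the strongest peaks of replicate 1 were used alone (adjusted exact p = 0.0899).

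Both libraries listed nearly all of these peaks. The peaks come from a set derived from these same libraries, and each list is long, so a large overlap follows from the selection. The overlap with each library's list was not computed over all peaks. In replicate 1, 2177 of 2179 overlapped a peak, with signals from 4.502 to 346.5 (median 100.2). In replicate 2 it was 2173, with signals from 3.69 to 293.1 (median 69.7). The scales of the 2 lists are their own. Their ranks can be set side by side, with a median of 17564 in replicate 1 and 17603 in replicate 2. Among the 62686 strongest peaks of both libraries were 1985 (91.1%, Wilson interval 89.8 to 92.2), and 46 were in neither. A conservative peak overlapped 93.2% of them, against 87.0% of all peaks on chromosomes 1 to 19.

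**Figure D5:**
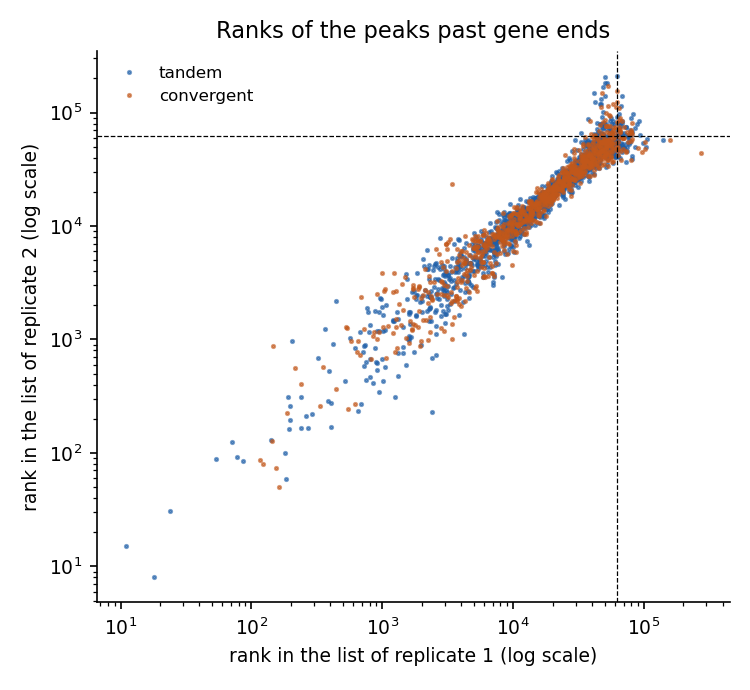
Rank of each peak past a gene end in the list of replicate 1 (horizontal axis) and replicate 2 (vertical axis), both on log scales, where 1 is the strongest. Tandem peaks are blue and convergent ones orange. Dashed lines mark rank 62686, and most points lie along the diagonal inside both lines.

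The strongest tandem site lay 4369 bp past Stmn1, which encodes the microtubule-destabilising protein stathmin. Its signal was 631.1, with 335.5 in replicate 1 and 293.1 in replicate 2. It ranked 18 and 8 in the 2 libraries. Next came Kcnk18, a potassium channel gene, with a site 2277 bp past its end at signals of 346.5 and 284.0 and ranks of 11 and 15. Asb10 had a site 2455 bp past its end at ranks 24 and 31, and 3040 bp before the start of Gbx1, a homeobox gene. These sites were picked by their signal in the list from both libraries, so high ranks in each library follow from that choice.

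The tandem site past Sppl2c, a protease gene, stood 35387 bp before Mapt, the gene of the microtubule protein tau. Its signal was 567.6, and its ranks were 54 and 88. Sites past Map3k21 (signal 560.9), Srxn1 (559.8), Pde11a (553.0), Olfr95 (545.1), Ddx1 (540.3) and Fgr (539.2) completed the 10 strongest. Map3k21 and Fgr encode protein kinases, Srxn1 the antioxidant enzyme sulfiredoxin and Pde11a a phosphodiesterase. Olfr95 is an olfactory receptor gene, followed 2812 bp on by Olfr94. Ddx1, an RNA helicase gene, has Mycn as its next coding gene, 273167 bp away. Of these 10 motifs, 6 read away from the gene and 4 back into it.

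The strongest convergent site lay 3563 bp past 1600014C10Rik, with a signal of 564.0 (293.9 in replicate 1, rank 164, and 264.6 in replicate 2, rank 50). Rfng, which encodes a glycosyltransferase of Notch receptors, followed with 551.4, at 301.7 and 253.4 in the libraries and ranks of 116 and 86. The site of Shmt2, the gene of a mitochondrial serine enzyme, had a signal of 550.7 and lay 4138 bp past its end and 4162 bp past that of Stac3. It is 1 of the 12 sites with another coding gene's edge in between, so its class is less sure than that of the others.

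Sites past Slc17a9 (547.2), Zmynd8 (535.3), Id2 (524.4), Wdr4 (505.4), Ccdc8 (501.7), Tmcc2 (496.3) and Cd40 (493.9) followed. Slc17a9 encodes a nucleotide transporter of vesicles, Id2 an inhibitor of basic helix-loop-helix factors and Wdr4 a partner of a tRNA methyltransferase. Cd40 is a receptor gene of immune cells. Among these 10, 4 motifs read away from the gene, 5 read back into it, and the best matches past Slc17a9 tied between strands. The tie leaves that site without a direction. Ranks ran from 116 to 332 in replicate 1 and from 50 to 869 in replicate 2, where the site of Tmcc2 was the lowest.

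Some sites stood between the ends of 2 genes that nearly meet. Of the 215 peaks within 5 kb of both a left and a right gene end, those of Shmt2, Ccdc8, Cd40, Clu and Sox13 were the strongest. Clu encodes the secreted chaperone clusterin, and its site lay 788 bp past its end and 4451 bp past that of Gulo, with a signal of 492.7. Sox13, a transcription factor gene, had a site 81 bp past its end and 1886 bp past that of Etnk2, with a signal of 491.2. The median signal of all 215 was 138.9, and 76.7% carried the motif.

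Other CTCF sites were often close by. The nearest other summit was a median of 4425 bp away (4175.5 in tandem and 5041.5 in convergent gaps), against 3666 bp upstream of starts and 9244 bp for far intergenic peaks. Another summit lay within 5 kb for 53.3%, against 60.5% upstream of starts and 34.9% of far intergenic peaks. These differences were not tested.

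Most gene ends had a single site. Of 1911 ends, 1667 had 1 peak, 221 had 2, 22 had 3 and 1 had 4. The end with 4 was that of Pnmal2, with summits 437, 643, 1533 and 2676 bp past it and signals of 97.8, 30.8, 390.7 and 274.5. The first pair shares 1 peak in each library list. Of the 22 ends with 3, those of Capn13 and Ano1 held the strongest single sites. Capn13, a calpain gene, had 3 sites, at 656, 3047 and 4156 bp, with signals of 315.9, 321.1 and 485.9. All 3 motifs read back into the gene. Ano1, a chloride channel gene, had 3 sites with signals of 199.3, 475.5 and 230.9 at 1071, 2707 and 4723 bp, and the first and second motifs read back into the gene while the third reads away.

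Gene lists that fit the tissue were then counted, with no test. Among all 16689 protein-coding genes with eligible bases past their end, 11.5% had a site there. Shares are per gene and were not adjusted for the amount of eligible sequence. All 16689 genes had 39.7 Mb of it and the 30 granule lineage genes 103.1 kb. The 33 hindbrain patterning genes had 120.4 kb and the 61 ribosomal protein genes 130.5 kb. The part of this in the shares was not tested. Of the cerebellar granule lineage list, 8 of 30 such genes (26.7%, Wilson interval 14.2 to 44.4) had one. The strongest was past Lmx1b, a homeodomain gene of the roof plate and midbrain border, with a signal of 460.9 (255.6 and 208.2 in the libraries) and a further site at 199.1. The others were Tbr1 (191.2), Zic5, Meis1, Insm1, Barhl1, Meis2 and Mycn. The list also holds genes not particular to that lineage, among them Lmx1b and Tbr1. The median signal of the 11 sites was 65.1, below the 169.2 of all sites past ends.

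Hindbrain patterning genes had a site in 6 of 33 (18.2%, Wilson interval 8.61 to 34.4, which holds the 11.5% of all genes). Among them were Ptf1a, which specifies inhibitory neurons of the cerebellum (171.8), Irx3 (159.6 and 106.8 at neighbouring summits) and Nkx6-1. Of their 8 sites, 7 were convergent, against 860 of the 2179 sites past all ends, and this was not tested. The 8 sites are not all separate, as the 2 Irx3 summits share 1 peak in the list of replicate 2. Hox genes had a site in 4 of 21, all tandem, past Hoxd9 (320.3), Hoxd13 (272.9), Hoxb9 (272.8) and Hoxb13. Hox genes stand in arrays on 1 strand.

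Forebrain genes had a site in 5 of 17 (29.4%, Wilson interval 13.3 to 53.1), led by Sp8 (321.0) and Six3 (245.6), both convergent. Tbr1 is on this list too. Neuronal genes had a site in 2 of 28, past Camk2a, the gene of a synaptic kinase (463.8, at 257.6 and 206.9 in the libraries), and past Nefm (33.0). Glial genes had one in 4 of 19, with Slc1a3, the astrocyte glutamate transporter gene, at 276.2 and 191.2 and Mbp, the myelin protein gene, at 55.6. The wide intervals of these short lists overlap each other.

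Marker genes of other cell types also had sites past their ends, which does not show that those cells were present. Genes of vessels, meninges, blood and microglia had a site in 3 of 26, past Cdh5 (239.5), Aif1 (223.1) and Col1a2 (216.4), and liver genes in 1 of 17, past Apoh (200.3). With counts this small, their shares of 11.5% and 5.88% have intervals (4.003 to 28.98 and 1.05 to 27.0) that hold the share of all genes.

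Cytosolic ribosomal protein genes had a site in 13 of 61 (21.3%, Wilson interval 12.9 to 33.1), with a median signal of 262.4 over 14 sites, 7 tandem and 7 convergent. Rps19 (500.9), Rps15a (455.7) and Rpl37a (444.6) led, each with a motif that reads away from the gene. Housekeeping genes had 3 of 13, among them Eef1a1 (151.1) and Tfrc (60.3), both with a motif that reads back. Replication-dependent histone genes had 4 of 62 (6.45%, 2.54 to 15.4), among them Hist1h2bl (337.8), Hist1h2bj (201.0) and Hist1h2bm (26.5).

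Imprinted genes had a site in 5 of 30, with Ddc (378.0), Ins2 (211.0) and Herc3 (90.3) the strongest. The list of cohesin and CTCF factors had 3 of 18, past Ctcfl, the germline paralogue of CTCF (440.5, with 252.7 and 191.2 in the libraries), Smc3, a subunit of the cohesin ring (411.2 and 207.5), and Mau2.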

How the data were processed

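CTCF ChIP-seq peaks of 2 hindbrain libraries were used. Per the deposited file descriptions, the authors made peak lists on mm10 from the alignments of each library (300000 peaks each) and of both together, with a control alignment, and derived the optimal (62686) and conservative (59979) sets by irreproducible discovery rate. For aligner, peak caller and thresholds: not given in the sources used here. Each deposited peak has a signal value, a score whose scale is the caller's own, and the deposited summit offset is in bp. Read depth is unknown here, as the files hold no counts, so precision is counting error over peaks, bases or matches.

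Bases were classed on chromosomes 1 to 19 of GRCm38.p6 (RefSeq sequence and its soft-masking, which may differ from other copies of mm10) with GENCODE vM21, using Python 3.11.15, numpy 2.4.6, pandas 2.3.3 and scipy 1.17.1. The 14-letter CTCF core consensus was searched on both strands. The best match gave the strand, and ties between strands were left out of strand shares. Matches counted as bound with a summit within 50 bp. Densities were compared by exact conditional binomial tests, shares by Fisher's exact test with Newcombe intervals, and strands against 50% by exact binomial tests (two-sided, threshold 0.05). The code was tested on simulated data.

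Named are the 10 strongest sites of each class, the 5 strongest between facing ends, up to 3 per gene list (some listed genes are not reported here), the first 3 ends by number of sites (ties by strongest signal), and the other listed genes where few. The members, lists and tests were chosen with earlier results of these data known. Alternatives were the conservative set, the 31343 strongest peaks, each library alone, merged summits (150 bp), soft-masked bases and limits of 2.5 and 10 kb. Further ones were other neighbour rules, 1 peak per end, 1 or 3 mismatches for peaks, 2 for bound matches, and wider windows (100 bp).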

Additional observations from a re-analysis of the deposited data

How the results depend on the processing

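Merging summits under 150 bp apart was no test, since the closest are 199 bp apart and all 13 values were identical. Under the other settings, 129 of 153 recomputed values kept their direction and side of the threshold. No paired analysis was possible because there is 1 group of libraries. Without replicate 1 and without replicate 2, the ratios ranged from 1.15 to 1.16 (past ends against upstream), 2.85 to 2.85 (against far intergenic), 1.01 to 1.02 (tandem against convergent) and 1.02 to 1.02 (first against second 2.5 kb). With soft-masked bases the last was 1.17 and passed. It was 0.999 among the 31343 strongest peaks. Past ends against upstream fell to 1.10 (2.5 kb) and 1.01 (1 peak per end), which did not pass. Tandem against convergent turned to 0.992 with neighbours of any type and 0.982 with those within 50 kb.

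The motif share difference between the classes turned to -0.104 points (neighbours within 50 kb) and -1.97 (at most 1 mismatch). That from far intergenic peaks fell to 0.904 (31343 strongest) and 2.95 (2.5 kb) and did not pass. The convergent strand share lost its call at 54.9% (31343 strongest), 52.3% (2.5 kb) and 54.1% (neighbours within 50 kb), and the strand difference at 0.413 points (any neighbour). The strong share difference between classes turned to -0.551 with soft-masked bases. The bound share difference between classes turned to -0.415 (conservative set), -0.522 (31343 strongest), -1.66 (soft-masked bases), -0.906 (2.5 kb), -2.31 (neighbours within 50 kb) and -0.276 (summit within 100 bp), and ranged from -0.212 to 0.223 with 1 library left out. Strong against weaker convergent peaks gave -0.307 to 0.564 and the promoter comparison 4.68 to 7.65 with 1 library left out, the lower value missing the threshold. None of the values named here as turned passed a test. With the 12 sites that have another coding edge in between left out, added after the data were seen, the strand shares were 61.8% and 56.0%. The causes were not tested.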
